A study of Mus musculus with 33 samples.

Results

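Mouse retinal progenitor cells under rod induction were compared between day 21 and day 12 of culture. The comparison took every RNA-seq library carrying those labels, 3 per day, which made 6 of the 33 libraries of the series. Both groups were C57BL/6J neural retinal progenitor cells taken from retinas at embryonic day 14 and cultured with taurine and retinoic acid, so the groups shared genotype, source and agents and differed in days of culture. The series also followed cells under cone induction with COCO, an antagonist of BMP, TGF-β and Wnt signalling, at the same days, and these 6 libraries served as a second time course that shared no library with the first. The labels do not say how long the agents stayed in the medium or whether replicates of a day came from separate cultures. A p-value of the main model is therefore set against a spread between libraries, shared over the 11 groups, that may be technical. Results are given with all libraries and without day 12 replicate 2 of the rod culture, whose profile stood apart from the other 2 libraries of its day.

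Rods are the photoreceptors of dim light. Their precursors switch on the homeodomain factor OTX2, then CRX, and the rod-specific pair NRL and NR2E3, which together turn on the proteins of the phototransduction cascade, while further genes build the outer segment, a modified cilium packed with membrane discs. Taurine and retinoic acid are both known to favour rod differentiation of retinal progenitors in culture. The progenitors themselves can also persist as dividing cells or become Müller glia, the radial glia of the retina.

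Between day 12 and day 21 most photoreceptor genes of the rod culture fell with all libraries, and a smaller share of 3 other lists rose, 10 of 26 genes of BMP and TGF-β signalling, 8 of 18 p53 target and senescence genes and 5 of 17 mesenchyme genes. Without day 12 replicate 2 these 3 counts were 6, 4 and 1. Of 64 listed photoreceptor genes, 61 were tested, and 47 fell with all libraries and 12 without day 12 replicate 2, against 0 that rose in either fit. CRX transcript fell 26.2-fold between the group means with all libraries and 8.43-fold without that replicate. With all libraries, 1 of 15 progenitor genes rose and 3 fell, 2 of 20 Müller glial genes rose and 0 fell, and 0 of 23 mitotic genes passed. Over all genes, 2027 of 18150 tested changed, which is 11.2% of those tested, with 886 higher (4.88%) and 1141 lower (6.29%) at day 21. In 2114 genes (11.6%) every day 21 library was above every day 12 library, and in 1809 (9.97%) every one was below, against 0 and 42 of the 61 photoreceptor genes. The test was edgeR's quasi-likelihood test on raw counts in a model of all 33 libraries, with Benjamini-Hochberg adjustment and a threshold of 0.05.

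The 2 ways of taking day 12 gave different numbers of genes. Without replicate 2, 556 of 18599 genes tested changed (2.99%), 234 higher (1.26%) and 322 lower (1.73%). The 2 fits shared 489 genes, 210 higher and 279 lower, all with the same sign in both. That is 24.1% of the genes called with all libraries and 87.9% of those called without replicate 2. The calls also rest on the spread shared with the other 9 groups of the series. A fit of the 6 libraries alone, adjusted over 15816 genes, called 1 gene (0.00632%), the noncoding RNA Miat, although 2657 genes had an unadjusted p under 0.05. The same fit without replicate 2 called 71 of 16251 genes (0.437%), 33 higher (0.203%) and 38 lower (0.234%), with 60 of them among the 489. Other libraries mattered too. The call count was 869 without day 21 replicate 3, 1229 without day 21 replicate 1 and 2926 without day 12 replicate 1.

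Day 12 replicate 2 was nearer to day 5 and farther from day 21 than the other libraries of its group. Its Pearson correlation with the rod libraries of day 5, over log2(CPM + 0.5) of all tested genes, lay between 0.960 and 0.968, where CPM is the count of a gene relative to the scaled library size. With the other day 12 libraries it was 0.940 to 0.962, and with those of day 21 it was 0.918 to 0.922. Replicates 1 and 3 correlated with day 21 at 0.970 to 0.976 and 0.963 to 0.969. Genes are not independent replicates, and these values describe the libraries only. Among the 1141 genes called lower at day 21, replicate 2 was the highest of the 6 libraries in 907 (79.5%), and among the 886 called higher it was the lowest in 614 (69.3%). Replicate 2 was in the fit that called these genes, so the calling itself raised these shares. Among genes called in both fits they were 138 of 279 (49.5%) and 110 of 210 (52.4%). The biological coefficient of variation of the day 12 group was 0.355, the highest of the 11 groups, and 0.208 without replicate 2, against 0.214 at day 21. The common value was 0.213 in the main model of all groups and 0.276 in the 6 libraries alone, so the main model used a smaller spread. Replicate 2 had 118 CPM of Xist against 1300 and 1334 in replicates 1 and 3, and its level of the Y-linked gene Kdm5d was 64.1 CPM against 19.9 and 23.3. The part of these differences in the results was not tested, and the pairs of values below show how far each result moved.

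**Figure D1:**
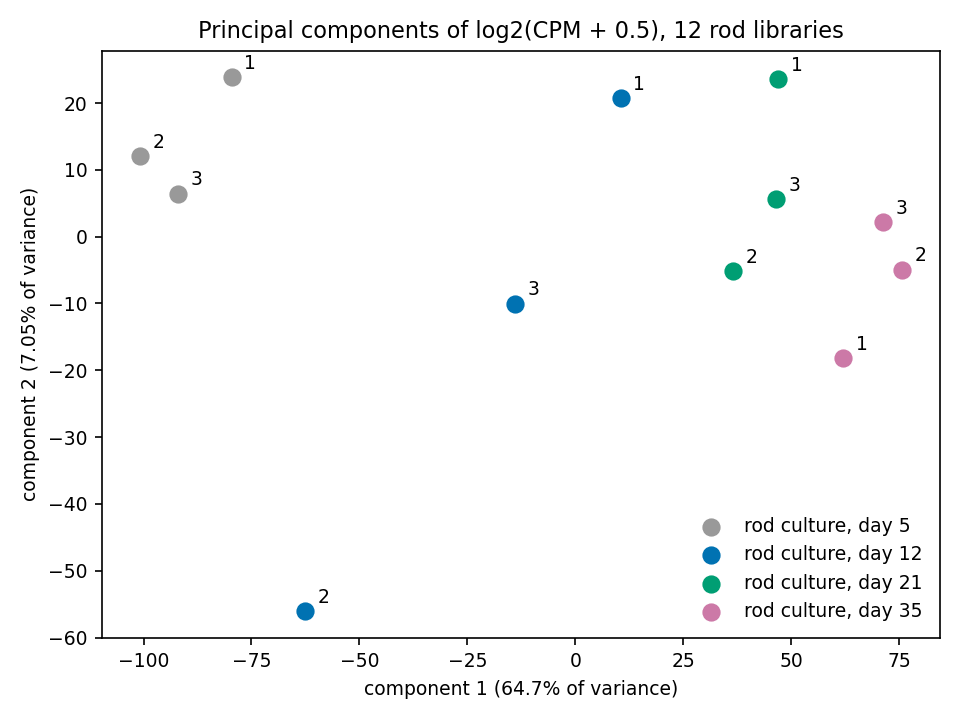
Principal components of log2(CPM + 0.5) for the 12 rod-induced libraries of days 5, 12, 21 and 35, each point a library marked with its replicate number (x axis component 1, 64.7% of the variance, y axis component 2, 7.05%, both in component units). Day 12 replicate 2 sits at -62.63 on component 1, between day 5 (-100.7 to -79.56) and the other day 12 libraries (10.54 and -14.09), and is the lowest on component 2 (-56.04), while day 21 lies at 36.4 to 46.97.

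The 6 libraries held 12809650 to 16432842 counts in genes, so a floor of 3 counts corresponded to 0.196 to 0.232 CPM in 1 library. Mitochondrial genes took 12.4% to 21.0% of these counts. As a check of the labelled cell type, the 15 listed retinal progenitor genes summed to 1114, 1259 and 1218 CPM on day 12 and 1273, 1287 and 1370 CPM on day 21. The retinoic acid response gene Cyp26a1, which encodes an enzyme that degrades retinoic acid, was at 95.2 to 210 CPM on day 12 and 130 to 162 CPM on day 21, against 2.32 to 8.99 CPM in the 6 cone-induced libraries. Cyp26a1 did not pass the test (log2 fold change -0.26 ± 0.35 SE, adjusted p = 0.70). Sox15, the gene in the title of the series, was near the floor, with 0.143, 0.273 and 0.649 CPM on day 12 and 0.0772, 0.386 and 1.24 CPM on day 21 (adjusted p = 0.59). The depth allowed no statement on its change.

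Photoreceptor transcription factors fell in both fits in part. Of 15 listed and tested, 11 fell with all libraries and 6 without replicate 2 (Crx, Otx2, Neurod1, Rorb, Samd7 and Sall3), and 0 rose. Their median log2 fold change was -3.92, and -2.48 without replicate 2, against 0.00 over all genes tested. Crx (GRCm38 chr7:15865947-15879968), the homeodomain activator of photoreceptor genes, was at 38.8, 431 and 78.0 CPM on day 12 and at 6.18, 8.42 and 6.33 CPM on day 21. Every day 12 library lay above every day 21 library, and the lowest of them, replicate 1, was still well above the highest day 21 value. The log2 fold change was -4.71 ± 0.72 (SE, adjusted p = 0.00032), and -3.08 (adjusted p = 0.0030) without replicate 2. Otx2 (chr14:48657677-48673819), which acts upstream of Crx, went from 22.1, 92.5 and 40.0 CPM to 3.24, 6.87 and 6.52 CPM. The groups did not overlap, and Otx2 fell in both fits (-3.21 ± 0.52, adjusted p = 0.00043, and -2.48, adjusted p = 0.0054).

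Neurod1, a basic helix-loop-helix factor of photoreceptor precursors, was at 22.1, 189 and 31.3 CPM on day 12 and 2.62, 4.94 and 2.67 CPM on day 21, and fell in both fits (adjusted p = 0.00039 and 0.0054). Rorb, a nuclear receptor needed for rod development, changed less and was even between replicates. It stood at 261, 315 and 231 CPM on day 12 and 119, 97.3 and 100 CPM on day 21, and its log2 fold change was -1.35 with all libraries and -1.23 without replicate 2 (adjusted p = 0.00054 and 0.0049). Samd7, a Polycomb-associated repressor of non-rod genes in rods, was at 4.93, 129 and 11.8 CPM on day 12. On day 21 it had 4 counts in all, giving 0.309 CPM in replicate 1 and 0 in the other two, and it fell in both fits (adjusted p = 0.00076 and 0.012). In bulk RNA, fewer cells of a type and less RNA per cell cannot be told apart, for these and all following genes.

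The rod-specific factors Nrl and Nr2e3 passed only with replicate 2. Nrl, the leucine zipper factor that sets rod identity, was at 0.428, 105 and 3.10 CPM on day 12 and at 0, 0 and 0.391 CPM on day 21, 6 counts in all. Nr2e3, the nuclear receptor downstream of NRL, was at 0.571, 153 and 5.62 CPM on day 12, and on day 21 a single count was found in the 3 libraries together. Both passed the test with all libraries (adjusted p = 0.0048 and 0.013) and neither did without replicate 2 (adjusted p = 0.32 and 0.31). Every remaining day 12 value lay above every day 21 value. For Nrl that gap was only 0.428 against 0.391 CPM, both near the floor. Nr2e3 also missed the threshold without day 21 replicate 1 (adjusted p = 0.0542) or day 21 replicate 3 (0.0646). At day 5 both had been present in all 3 rod libraries, Nrl at 33.6 to 76.2 CPM and Nr2e3 at 24.4 to 112 CPM, so replicates 1 and 3 were already far below day 5 at day 12.

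Not every photoreceptor factor followed. Thrb, the thyroid hormone receptor of cone specification, was at 8.21, 42.8 and 10.5 CPM on day 12 and 9.19, 17.8 and 16.7 CPM on day 21, with overlapping groups (adjusted p = 0.52, and 0.41 without replicate 2). Mef2c and Mef2d, MADS-box factors that are also used outside the retina, did not pass either.

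Phototransduction genes fell with all libraries, and none of the rod set passed without replicate 2. Of the 18 rod phototransduction genes tested, 13 fell with all libraries, with a median log2 fold change of -5.55. Without replicate 2, edgeR called 0 of 18, with 8 lower at an unadjusted p under 0.05 and a median of -2.25. With all libraries, DESeq2 also called 13 lower. Sag, the rod arrestin, which ends the response to light, was at 4.07, 654 and 21.8 CPM on day 12 and 3.24, 2.01 and 1.04 CPM on day 21. Replicate 1 of day 12 was thus close to the day 21 libraries, and Sag passed only with replicate 2 (adjusted p = 0.0037, and 0.20 without).

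Other parts of the cascade showed the same layout. Pde6b, a catalytic subunit of the rod phosphodiesterase, was at 2.07, 240 and 7.50 CPM on day 12 and 0.232, 0 and 0.130 CPM on day 21 (adjusted p = 0.0057, and 0.19 without replicate 2). Rcvrn, the calcium sensor recoverin, was at 3.00, 66.9 and 8.07 CPM on day 12 and 0.926, 0.463 and 0.782 CPM on day 21 (adjusted p = 0.0025 and 0.068). Gnb1, a G protein β subunit used by most cell types, overlapped between days and did not pass (adjusted p = 0.21). Pdc, which encodes phosducin, a photoreceptor protein that binds G protein βγ subunits and was outside the fixed lists, passed in both fits. It was at 7.35, 449 and 19.1 CPM on day 12 and at 0.154, 0.154 and 0.196 CPM on day 21, 7 counts in all. Pdc fell with all libraries (-9.79 ± 1.59, adjusted p = 0.00046) and without replicate 2 (-6.21, adjusted p = 0.0077).

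The cone phototransduction list summed to 159, 323 and 173 CPM on day 12 and 148, 134 and 152 CPM on day 21, most of it from Ccdc136 on day 21 (130, 111 and 136 CPM), whose groups overlapped. Of 11 tested, 7 fell with all libraries and 1 without replicate 2, the cone cation channel subunit Cngb3, and the median log2 fold change was -2.75 and -1.86. Cngb3 was at 4.57, 34.1 and 9.01 CPM on day 12 and 1.16, 2.78 and 0.652 CPM on day 21 (adjusted p = 0.0018 and 0.042). Arr3, the cone arrestin, had 13 counts over the day 12 libraries and 0 in all 3 libraries of day 21. Its 0.143, 0.546 and 0.216 CPM on day 12 were themselves near the floor, and the fall was at least 2.05 on the log2 scale against a floor of 3 counts over the day 21 group.

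Genes of the outer segment and its cilium formed the list with the largest median fall, -5.66 with all libraries and -2.49 without replicate 2. Of 17 tested, 16 fell with all libraries and 5 without, namely Rp1, Rp1l1, Rpgrip1, Cdhr1 and Mak. Rp1 (chr1:3999557-4409241), a microtubule-binding protein of the photoreceptor axoneme, was at 19.2, 878 and 37.9 CPM on day 12 and 1.47, 0.0772 and 0.913 CPM on day 21 (-8.55 ± 1.53, adjusted p = 0.0011, and -5.11, adjusted p = 0.019). Rpgrip1, a scaffold of the connecting cilium, was at 19.2, 740 and 42.7 CPM on day 12 and 2.55, 3.09 and 1.04 CPM on day 21 (-6.93 ± 1.28, adjusted p = 0.0014, and -3.83, adjusted p = 0.031). For both genes even the lowest day 12 library was well above the highest of day 21. Prph2, the tetraspanin of the disc rim, was at 0.857, 190 and 8.15 CPM on day 12 and 0.0772, 0 and 0.326 CPM on day 21, and passed only with replicate 2 (adjusted p = 0.0068 and 0.21). Fscn2, a fascin of photoreceptors, was the tested member that did not pass, with 0 to 0.409 CPM on day 12 and 0.0652 to 0.154 CPM on day 21.

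**Figure D2:**
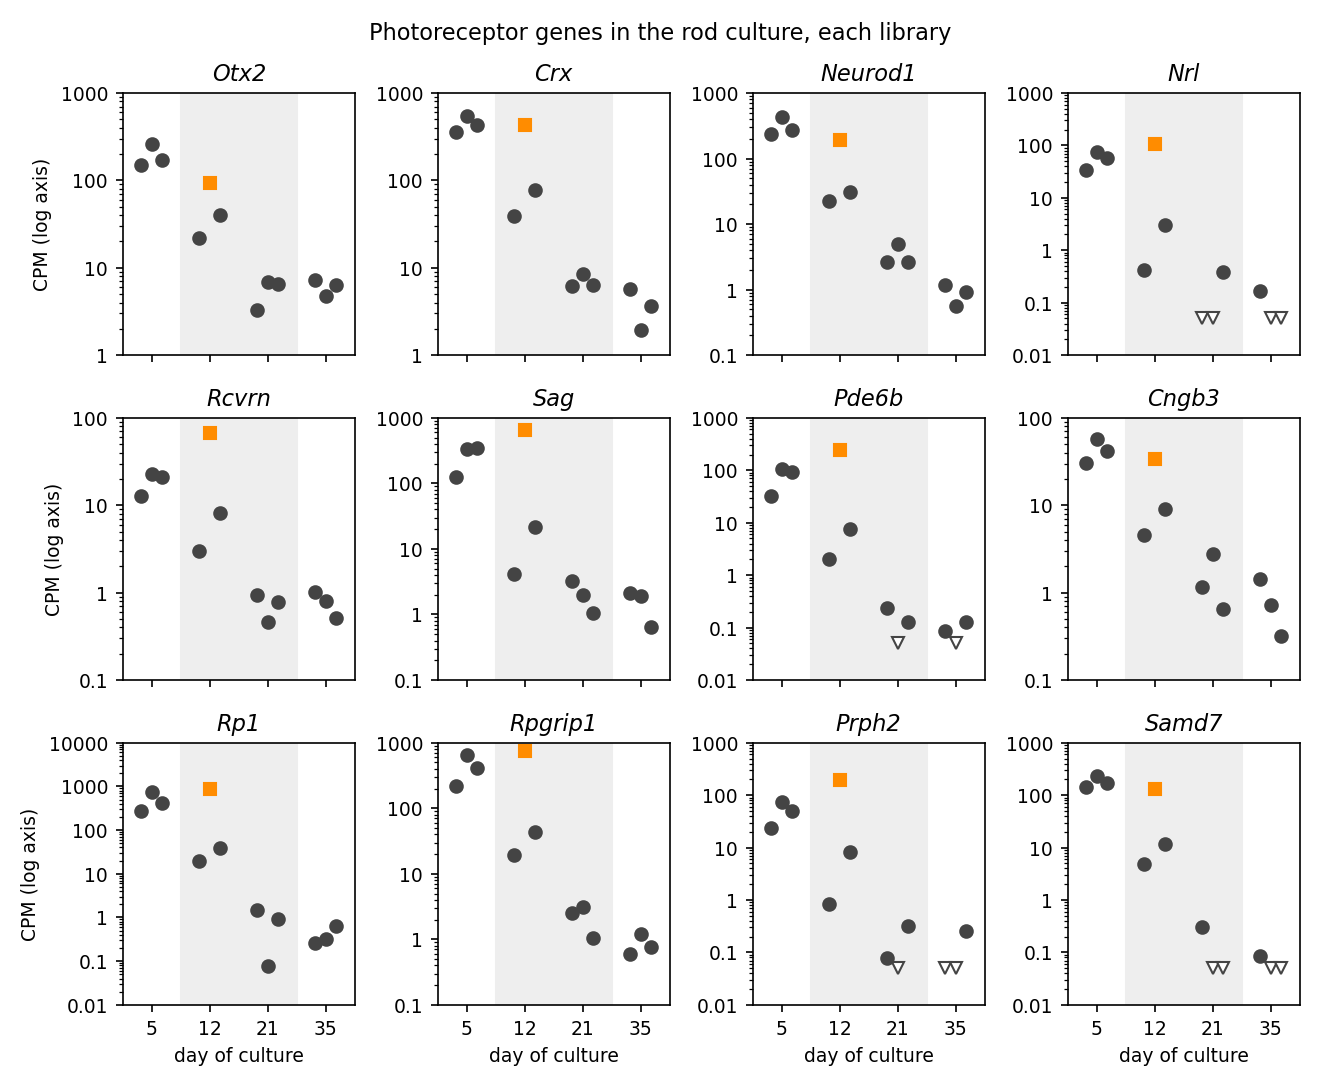
CPM (y axis, log scale) of 12 photoreceptor genes in each rod-induced library at days 5, 12, 21 and 35 (x axis, day of culture). Each dot is a library, the orange square is day 12 replicate 2, an open triangle is a value of 0 drawn at 0.05 CPM, and the grey band marks the days compared. Replicate 2 lies above its group in all 12 panels, and Crx runs from 38.8 to 431 CPM on day 12 against 6.18 to 8.42 CPM on day 21.

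Crx and Rp1 were lower at day 35 than at day 5 by a wide margin. Crx was at 360, 545 and 432 CPM at day 5 and at 5.69, 1.94 and 3.68 CPM at day 35. Rp1 was at 269, 759 and 415 CPM at day 5 and at 0.255, 0.323 and 0.646 CPM at day 35. Replicate 2 of day 12 was thus within the day 5 range for Crx and above it for Rp1. Summed over the list, photoreceptor transcription factors reached 441, 1848 and 519 CPM on day 12, 204.5 to 229 CPM on day 21 and 169 to 217 CPM at day 35. The rod phototransduction list, which includes the widely expressed Gnb1, summed to 687 to 1360 CPM at day 5, to 364, 2927 and 405 CPM on day 12, to 335.5 to 384 CPM on day 21 and to 401 to 419 CPM at day 35. Its sum and that of the outer segment list (36.8 to 45.6 CPM on day 21, 38.2 to 50.6 CPM at day 35) were thus no lower at day 35 than at day 21, and Otx2 was at 3.24 to 6.87 CPM and then 4.77 to 7.31 CPM. A sum does not show each member. Outer segment genes at 0 counts numbered 0, 2 and 2 of 17 on day 21 and 4, 6 and 4 at day 35. Rod phototransduction genes at 0 numbered 1, 4 and 2 of 19 and then 3, 4 and 3. The cone list summed to 134 to 152 CPM on day 21 and 115 to 137 CPM at day 35. Neurod1 was at 2.62 to 4.94 CPM and then 0.566 to 1.19 CPM.

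Most tested genes of the 4 photoreceptor lists were called lower with all libraries (47 of 61), and 12 were without replicate 2. Promoters of the listed genes, called or not, were therefore read for the core letters bound by CRX and related homeodomain proteins. These are TAATCC, or GGATTA on the other strand. A part of CRX in the fall was not tested. RefSeq's GRCm38.p6 table held 66 promoters for 49 of the 64 photoreceptor genes, each read over 250 bases before the start. The letters were in 19 of 66 (28.8%), against 2054 of 32851 promoters in all (6.3%). By list, they were in 7 of 12 rod phototransduction promoters (58.3%), 6 of 18 of the outer segment list (33.3%), 5 of 23 of the transcription factors (21.7%) and 1 of 13 of the cone list (7.7%). For comparison, the CCAAT box (CCAAT or ATTGG) was in 25 of 66 (37.9%) against 33.8% of all promoters, and the letters TTTGAA or TTCAAA of the cell cycle genes homology region were in 10 of 66 (15.2%) against 16.0%. The synaptic list, with 16 of 26 tested genes called lower, was read in the same way. Of its 30 promoters, 4 held the CRX letters (13.3%), 4 the CCAAT box (13.3%) and 3 the cell cycle letters (10.0%). A match is a run of letters and not a measured binding site, and alternative promoters of a gene can overlap. The 5 promoters below were picked from 19 genes of the photoreceptor lists with a match to the CRX letters, which are in capitals. Otx2 and Thrb, described above, also hold the letters (211 and 46 bases before the start) and are not shown. Thrb did not pass the test of change. Crx lies on chr7:15879956-15880205 (minus strand), Samd7 on chr3:30746043-30746292 (plus), Rpgrip1 on chr14:52110653-52110902 (plus), Sag on chr1:87803430-87803679 (plus) and Cngb1, a rod cation channel subunit, on chr8:95306586-95306835 (minus), and each reads 5′ to 3′ up to the base before the start.
Crx: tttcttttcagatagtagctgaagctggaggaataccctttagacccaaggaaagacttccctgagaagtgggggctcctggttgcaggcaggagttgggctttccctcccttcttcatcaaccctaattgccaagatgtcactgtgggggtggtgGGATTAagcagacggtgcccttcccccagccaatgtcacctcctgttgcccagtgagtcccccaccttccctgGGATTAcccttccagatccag
Samd7: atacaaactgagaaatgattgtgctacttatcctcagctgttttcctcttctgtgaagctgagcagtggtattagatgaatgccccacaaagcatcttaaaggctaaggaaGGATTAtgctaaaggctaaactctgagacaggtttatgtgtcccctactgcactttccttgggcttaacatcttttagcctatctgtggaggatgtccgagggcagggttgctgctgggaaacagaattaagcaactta
Rpgrip1: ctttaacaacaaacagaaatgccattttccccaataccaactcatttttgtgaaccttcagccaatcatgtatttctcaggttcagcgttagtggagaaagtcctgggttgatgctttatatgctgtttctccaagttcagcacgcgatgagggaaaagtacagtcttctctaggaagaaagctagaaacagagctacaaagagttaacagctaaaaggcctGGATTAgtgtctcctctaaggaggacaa
Sag: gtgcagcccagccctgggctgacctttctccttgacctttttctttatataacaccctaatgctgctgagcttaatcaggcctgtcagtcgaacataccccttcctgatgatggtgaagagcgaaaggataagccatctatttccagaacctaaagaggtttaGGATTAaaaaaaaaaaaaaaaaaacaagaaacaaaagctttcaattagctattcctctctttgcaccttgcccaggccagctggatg
Cngb1: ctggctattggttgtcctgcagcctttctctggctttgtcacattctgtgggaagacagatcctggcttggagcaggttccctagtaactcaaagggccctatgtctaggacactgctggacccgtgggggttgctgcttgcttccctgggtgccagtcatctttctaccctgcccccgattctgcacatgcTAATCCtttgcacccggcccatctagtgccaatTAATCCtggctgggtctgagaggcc
The matches began 94 and 21 bases before the start in Crx, 139 in Samd7, 28 in Rpgrip1, 87 in Sag, and 58 and 25 in Cngb1. Crx and Samd7 were genes that fell in both fits, as was Rpgrip1, whereas Sag and Cngb1 passed only with replicate 2 (adjusted p of Cngb1 0.0067 and 0.20).

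Genes of other retinal neurons were lower at day 21 in part. Of 15 bipolar cell genes, 6 fell with all libraries and 2 without replicate 2, and the median was similar in both fits, -1.76 and -1.83. Cabp5, a calcium-binding protein of bipolar cells, was at 7.00, 40.7 and 13.8 CPM on day 12 and 1.00, 1.16 and 2.28 CPM on day 21 (adjusted p = 0.0012 and 0.016). Lhx4, a LIM homeodomain factor of bipolar cells and photoreceptor precursors, was at 19.8, 49.8 and 49.8 CPM on day 12 and 4.71, 10.3 and 7.50 CPM on day 21 (adjusted p = 0.0039 and 0.022). Replicates 2 and 3 were alike for Lhx4, and the groups did not overlap. For Grm6, the glutamate receptor of ON bipolar cells, replicate 3 was the highest day 12 library (9.78, 47.8 and 60.9 CPM against 4.63, 9.73 and 3.91 CPM), and the call held only with all libraries (adjusted p = 0.032 and 0.11).

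Of 18 amacrine and horizontal cell genes, 4 fell with all libraries and 1 without replicate 2, with medians of -1.35 and -0.06. That gene was Prox1 (chr1:190118035-190170714), a homeodomain factor of horizontal cells that is also found in progenitors and Müller glia. It stood at 153, 145 and 219 CPM on day 12 and at 75.7, 65.9 and 64.8 CPM on day 21, with replicate 2 inside its group. The log2 fold change was -1.32 ± 0.15 (adjusted p = 2.8e-05), and -1.44 (adjusted p = 7.2e-06) without replicate 2. Gad1, the GABA-synthesising enzyme of amacrine cells, was high in replicate 2 alone (4.78, 55.8 and 5.62 CPM, against 4.48, 3.63 and 7.50 CPM on day 21), and its change was 0.00 without that library. Retinal ganglion cell genes gave 2 higher and 5 lower of 15 with all libraries. Without replicate 2, edgeR called 0, with 3 higher and 3 lower at an unadjusted p under 0.05 and a median of 0.01.

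Synaptic and ion channel genes fell widely with all libraries, 16 of 26 and 11 of 26, and 0 rose. Without replicate 2 the counts were 1 and 2, and the medians moved from -1.52 to -0.75 and from -1.33 to -0.76. Nrxn3, a presynaptic adhesion protein, was the synaptic gene that passed in both fits. It was at 48.5, 148 and 170 CPM on day 12 and at 11.0, 36.5 and 14.6 CPM on day 21 (-2.56 ± 0.54, adjusted p = 0.0035, and -2.41, adjusted p = 0.018). Snap25, a core protein of vesicle fusion, was at 32.8, 242 and 63.7 CPM on day 12 and 14.4, 19.2 and 12.4 CPM on day 21, and passed only with replicate 2 (adjusted p = 0.0038 and 0.084). Among channels, Cacna1b, the pore of N-type calcium channels, went from 17.5, 37.3 and 30.9 CPM to 7.18, 9.73 and 6.59 CPM (adjusted p = 0.00032 and 0.0032). The 2 days were apart in Cacna1b.

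Of 15 proneural genes 6 fell with all libraries and 1 without replicate 2. Neurod4, a factor of bipolar, amacrine and photoreceptor precursors, was at 67.9, 204 and 139 CPM on day 12 and at 10.9, 28.6 and 16.6 CPM on day 21. It fell by 2.87 on the log2 scale with all libraries (adjusted p = 0.00032) and by 2.47 without replicate 2 (adjusted p = 0.0023).

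Miat, a long noncoding RNA that is expressed in retinal progenitors and neurons, was the single gene called in a fit of the 6 rod libraries alone. It was at 67.3, 68.2 and 69.6 CPM on day 12 and at 19.0, 20.7 and 18.3 CPM on day 21. The 3 libraries of each day agreed closely, replicate 2 included. Miat (chr5:112213228-112229395) fell 3.54-fold, with adjusted p = 0.0020 over all libraries, 0.0089 without replicate 2 and 0.0087 in the fit of the 6 libraries alone.

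Division genes gave no calls, and some progenitor genes were called. edgeR called 0 of 23 mitotic genes and 0 of 25 DNA replication genes with all libraries, none had an unadjusted p under 0.05, and DESeq2 also called 0. Their medians were 0.02 and 0.05, and -0.22 and -0.10 without replicate 2. Mki67, the proliferation antigen Ki-67, was at 1030, 398 and 704 CPM on day 12 and at 781, 608 and 600 CPM on day 21, with overlapping groups (-0.10 ± 0.29, adjusted p = 0.87). Of 15 progenitor genes, 1 rose and 3 fell with all libraries, where 4.88% of all genes rose and 6.29% fell. Without replicate 2, 1 of 15 fell, against 1.73% of all genes. That gene was Fabp7, a lipid-binding protein of progenitors and radial glia. It went from 4.71, 30.8 and 7.35 CPM to 1.39, 1.16 and 1.24 CPM (adjusted p = 0.00057 and 0.011).

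With all libraries, Müller glial genes were called at a share near the 11.2% of all genes, 2 of 20 higher and 0 lower. Without replicate 2 the single call of 20 was Crym, lower, where 2.99% of all genes were called. The summed level of the list was 6773, 4583 and 6110 CPM on day 12 and 7717, 6083 and 7303 CPM on day 21. Rlbp1, the retinaldehyde-binding protein of Müller glia, was at 106, 174 and 120 CPM on day 12 and 120, 62.0 and 85.0 CPM on day 21 (adjusted p = 0.28). Glul, glutamine synthetase, was at 153, 141 and 169 CPM and 145, 92.2 and 112 CPM (adjusted p = 0.16), and Gfap, the intermediate filament of astrocytes and reactive glia, at 69.8, 27.1 and 71.5 CPM and 129, 61.2 and 126 CPM (adjusted p = 0.19). Groups overlapped in all 3 genes. Among 20 astrocyte and reactive glial genes, 4 rose with all libraries (Serpina3n, C3, Timp1 and Cd44), the median log2 fold change was 0.40 and 17 of 20 were positive. In 6 of them every day 21 library was above every day 12 library. Without replicate 2 edgeR called 0 in that list, with 5 higher and 1 lower at an unadjusted p under 0.05 and a median of 0.53.

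**Figure D3:**
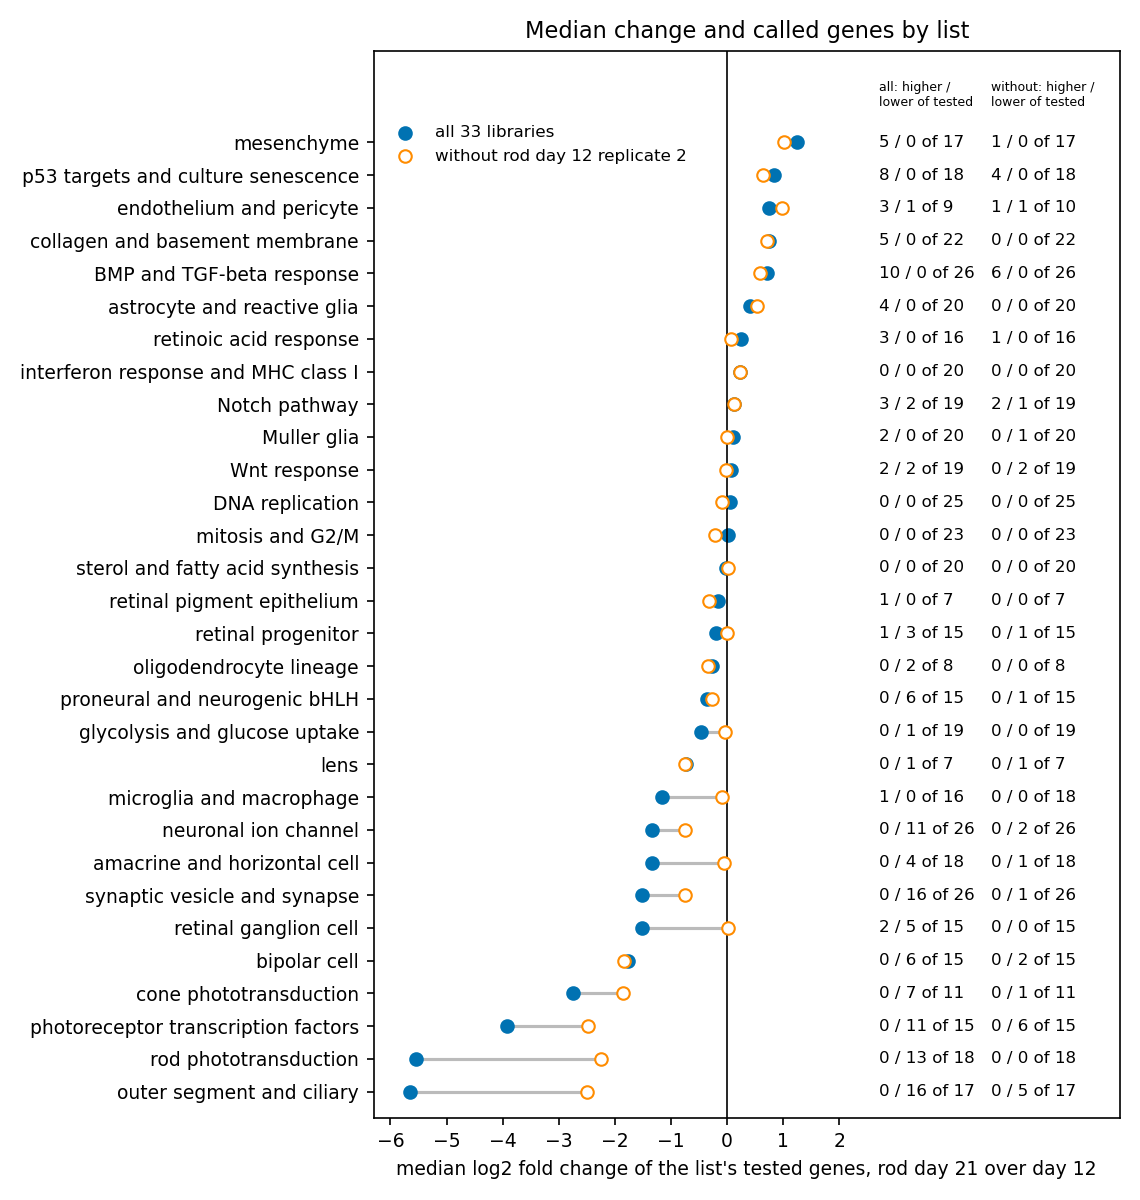
Median log2 fold change of rod day 21 over day 12 (x axis) for the tested genes of 30 lists (y axis), with all 33 libraries (blue) and without rod day 12 replicate 2 (open orange), and the numbers of genes called higher and lower beside each. The outer segment list has the lowest median, -5.66 and -2.49, and the mesenchyme list the highest, 1.25 and 1.01.

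Part of the BMP and TGF-β list rose. Of 26 tested, 10 rose and 0 fell with all libraries, and 6 rose without replicate 2 (among them Ltbp2, Grem1, Tgfb1, Smad7 and Skil), with medians of 0.71 and 0.59. The count with all libraries was also 6 without day 21 replicate 3. Ltbp2 (chr12:84783212-84876532), a matrix protein of the latent TGF-β-binding family, was at 18.2, 7.71 and 13.7 CPM on day 12 and at 52.1, 122 and 81.2 CPM on day 21 (2.69 ± 0.35, adjusted p = 0.00013, and 2.41, adjusted p = 0.00083). All day 21 libraries of Ltbp2 were above all day 12 libraries, and day 12 replicate 1 was the nearest to day 21.

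The ligand Tgfb1 was low but even, at 2.21, 2.32 and 1.59 CPM on day 12 and 5.41, 5.48 and 7.37 CPM on day 21 (adjusted p = 0.0050 and 0.021). Grem1, a secreted BMP antagonist, went from 6.14, 1.98 and 2.09 CPM to 26.7, 13.3 and 35.0 CPM (adjusted p = 0.0014 and 0.016). The negative regulators also moved. Smad7, the inhibitory SMAD, was at 31.1, 28.4 and 30.5 CPM on day 12 and 57.3, 42.3 and 61.5 CPM on day 21 (adjusted p = 0.0068 and 0.047). BMP target genes of the Id family did not pass, and for Id1 the groups overlapped (14.0, 19.9 and 14.6 CPM against 21.2, 18.7 and 21.0 CPM, adjusted p = 0.52).

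Genes of p53 and of culture senescence rose, 8 of 18 with all libraries and 4 without replicate 2 (Cdkn2a, Cdkn2b, Mdm2 and Trp53inp1), with 0 lower and medians of 0.83 and 0.64. Their number depended on single libraries, with 16 called without day 12 replicate 1, 4 without day 12 replicate 3, 4 without day 21 replicate 1 and 5 without day 21 replicate 3. Cdkn2a, which encodes the cell cycle inhibitor p16INK4a and ARF, was at 2.07, 1.16 and 1.73 CPM on day 12 and at 6.41, 5.48 and 5.35 CPM on day 21 (1.79 ± 0.33, adjusted p = 0.0015, and 1.58, adjusted p = 0.018). Its neighbour Cdkn2b, which encodes p15INK4b, was at 6.50, 2.66 and 4.47 CPM on day 12 and at 13.9, 13.7 and 13.1 CPM on day 21 (adjusted p = 0.0012 and 0.014). The day 21 libraries agreed closely for both genes and lay above every day 12 library. Mdm2, the ubiquitin ligase that p53 induces, rose less, from 120, 89.2 and 99.4 CPM to 164, 162 and 196 CPM (0.76, adjusted p = 0.0015, and 0.66, adjusted p = 0.019). Cdkn1a, which encodes p21, did not pass (40.6, 12.1 and 19.0 CPM against 55.0, 35.7 and 52.4 CPM, adjusted p = 0.061).

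**Figure D4:**
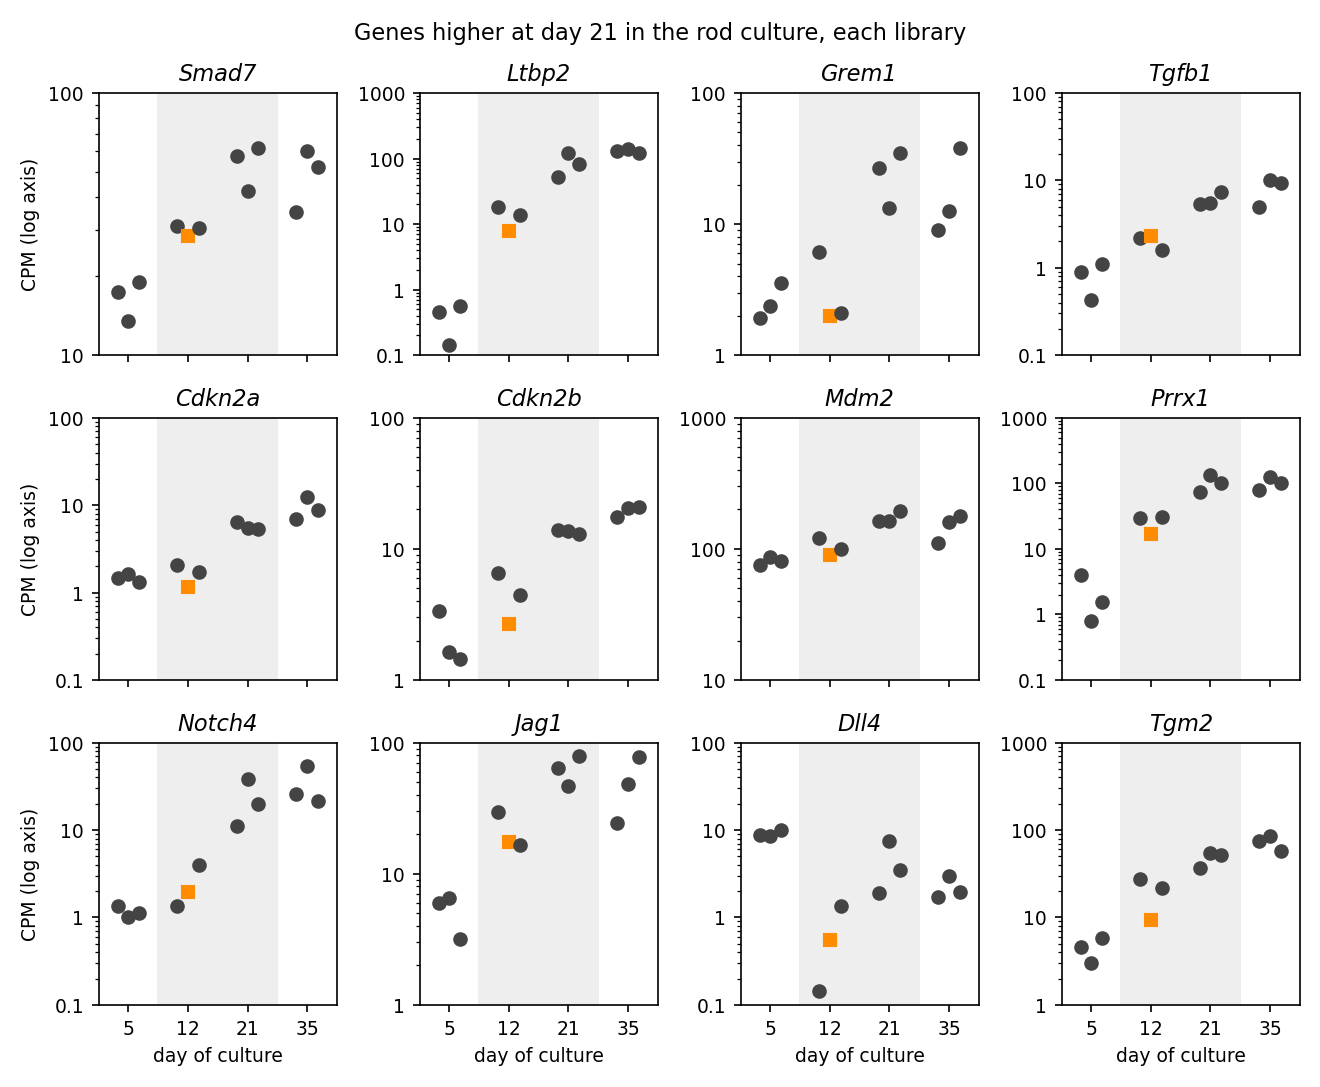
CPM (y axis, log scale) of 12 genes that rose in both fits, in each rod-induced library at days 5, 12, 21 and 35 (x axis), with the same symbols as the plot of photoreceptor genes. No panel has a day 12 library above a day 21 library, and Ltbp2 runs from 7.71 to 18.2 CPM on day 12 and from 52.1 to 122 CPM on day 21.

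In the Notch pathway, 2 ligands rose in both fits. Of 19 genes, 3 rose and 2 fell with all libraries, and 2 rose and 1 fell without replicate 2. Jag1, a Notch ligand, was at 29.4, 17.4 and 16.6 CPM on day 12 and at 64.0, 46.9 and 79.9 CPM on day 21 (1.59 ± 0.31, adjusted p = 0.0022, and 1.46, adjusted p = 0.023). Dll4, another ligand, was low, at 0.143, 0.546 and 1.37 CPM and then 1.93, 7.57 and 3.46 CPM (adjusted p = 0.0035 and 0.029). Hes1 and the receptor Notch1 did not pass, and their groups overlapped. Notch4, a receptor mainly of endothelium and kept in the endothelial list, had among the largest rises, from 1.36, 1.98 and 4.04 CPM to 11.1, 38.4 and 19.9 CPM (3.23 ± 0.50, adjusted p = 0.00032, and 3.09, adjusted p = 0.0039). Of 9 tested genes of the endothelium and pericyte list, 3 rose with all libraries (Notch4, Rgs5 and Pdgfrb) and 1 fell (Kdr), with a median of 0.75. Without replicate 2, of 10 tested, Notch4 rose and Kdr fell, with a median of 0.98. Rgs5, a pericyte marker, was at 7.78, 6.48 and 9.44 CPM on day 12 and at 19.3, 36.4 and 33.5 CPM on day 21 (1.91 ± 0.61, adjusted p = 0.042, and 1.78, adjusted p = 0.17). Of the defining endothelial markers, Cdh5, Tek and Vwf were below the level needed for a test in either fit, Cldn5 was below it with all libraries, and Pecam1 was at 0.649 to 1.30 CPM on day 12 and 0.154 to 1.16 CPM on day 21. The summed list was at 280, 287 and 254 CPM on day 12 and 223, 236 and 194 CPM on day 21, and most of the day 12 sum was Kdr. Without Kdr, a choice made after its values were seen, the sum was 40.6, 88.6 and 70.1 CPM on day 12 and 84.9, 174 and 105 CPM on day 21. The part of endothelial or pericyte cells in the rise of Notch4 was not tested. Kdr, a VEGF receptor that retinal progenitors also express, fell from 240, 198 and 184 CPM to 138, 62.5 and 88.9 CPM (adjusted p = 0.0064 and 0.021).

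Mesenchymal genes had the highest median of the 30 lists, 1.25 with all libraries and 1.01 without replicate 2. Of 17 tested 5 rose with all libraries, and Prrx1, a homeobox factor of mesenchyme, was the one that also rose without replicate 2. It was at 30.0, 16.6 and 30.9 CPM on day 12 and at 73.3, 136 and 103 CPM on day 21 (adjusted p = 0.0045 and 0.037). Col1a1, the main fibrillar collagen chain, was at 20.4, 7.98 and 15.9 CPM on day 12 and 49.3, 93.1 and 68.7 CPM on day 21 (adjusted p = 0.010, and 0.079 without replicate 2). The summed list, of which the fibronectin gene Fn1 gave the most counts, was 2318, 3283 and 2058 CPM on day 12 and 3851, 3748 and 4485 CPM on day 21. Whether a change in the mix of cells had a part in the TGF-β and matrix genes was not tested. Of 22 collagen and basement membrane genes, 5 rose with all libraries, and without replicate 2 edgeR called 0, with 9 higher and 1 lower unadjusted. The medians of that list were 0.74 and 0.71.

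Of 16 retinoic acid response genes, 3 rose with all libraries (Tgm2, Hic1 and Aldh1a3) and 1 without replicate 2. That gene was Tgm2, tissue transglutaminase, which went from 27.3, 9.35 and 22.0 CPM to 36.6, 54.3 and 51.8 CPM (adjusted p = 0.0045 and 0.034). Of 20 interferon and MHC class I genes, edgeR called 0 with all libraries, with 2 higher at an unadjusted p under 0.05, and DESeq2 called 0. Sterol and fatty acid synthesis gave 0 of 20 by edgeR, with 1 higher and 2 lower unadjusted. Other markers of cells that a retinal culture could hold were low. The 16 tested microglial and macrophage genes gave 1 call (Tmem119, 0 counts on day 12 and 11 on day 21), and the list summed to 26.4 to 40.0 CPM on day 12 and 27.6 to 30.7 CPM on day 21. Lens genes summed to 9.73 to 17.9 CPM, retinal pigment epithelium genes to 43.4 to 56.0 CPM and oligodendrocyte lineage genes to 33.0 to 48.7 CPM over the 6 libraries.

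The largest rises among genes called in both fits included several outside the lists. Ctla2a, a cathepsin inhibitor, was at 2.71, 0.682 and 1.08 CPM on day 12 and at 26.0, 11.6 and 38.6 CPM on day 21 (4.09 ± 0.69, adjusted p = 0.0012, and 3.73, adjusted p = 0.012). Lgsn, which encodes the glutamine synthetase-like protein lengsin, was at 2.00, 0.614 and 0.433 CPM on day 12 and 15.2, 5.87 and 23.9 CPM on day 21 (adjusted p = 0.00032 and 0.0037). Both were at 0 in every rod library of day 5. Spon2, an extracellular matrix protein, went from 1.86, 2.32 and 2.16 CPM to 14.3, 32.8 and 28.6 CPM (adjusted p = 0.0024 and 0.019), and Cmah, a sialic acid hydroxylase, from 0.643, 0.341 and 0.721 CPM to 4.55, 2.55 and 12.8 CPM (adjusted p = 0.0024 and 0.023). Col25a1, a transmembrane collagen, and Sparcl1, a matrix glycoprotein made by glia, rose with more spread between libraries. Sparcl1 was at 9.85, 34.0 and 34.8 CPM on day 12 and 76.0, 385 and 154 CPM on day 21 (adjusted p = 0.011 and 0.046), and missed the threshold without day 21 replicate 2 (adjusted p = 0.0676). Replicates 1 and 3 of day 21 were nearer to each other than to replicate 2 in Sparcl1, whereas Ctla2a was lowest in replicate 2.

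The cone-induced culture gave the change over the same days without taurine and retinoic acid in its label. There, 610 of 18150 genes passed (3.36%), 460 higher (2.53%) and 150 lower (0.826%). Of the 210 genes that rose in the rod culture in both fits, 179 had the same sign in the cone culture (85.2%) and 34 were also called there (16.2%), with a median log2 change of 0.39 against 1.50 in the rod culture. Of the 279 that fell, 232 had the same sign (83.2%) and 26 were called (9.32%), with medians of -0.55 and -1.76. Over all tested genes 52% were positive in the cone culture and 48% negative. The shared calls made up 34 of the 460 higher and 26 of the 150 lower genes of the cone culture, and 0 of the 489 genes were called in opposite directions.

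The 4 photoreceptor lists together had a median of -4.68 in the rod culture, or -4.57 with genes at 0 set to their bound, -2.44 without replicate 2, and -1.04 in the cone culture. edgeR called 0 of 61 in the cone culture, where 11 were lower and 0 higher at an unadjusted p under 0.05. The difference between cultures was called for none of Crx, Otx2, Nrl and Nr2e3 (adjusted p = 0.11, 0.13, 0.23 and 0.26), so these data do not separate the 2 cultures for them. Crx in the cone culture was at 38.4, 129 and 34.4 CPM on day 12 and 8.00, 39.6 and 25.1 CPM on day 21, and replicate 2 was again the highest of day 12. Cone day 12 replicate 2 also stood apart in the summed outer segment list (268, 1944 and 294 CPM) and in Xist (1129, 640 and 1156 CPM). It was kept in the fit of the cone change, and so in the shares of shared signs above. Whether same-numbered libraries of the 2 cultures share a source was not tested.

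Testing the difference itself, the change over days 12 to 21 differed between cultures in 78 of 18150 genes (0.43%), 26 more positive (0.143%) and 52 more negative (0.287%) under rod induction. Without rod day 12 replicate 2 the count was 38 of 18599 (0.204%), 5 more positive (0.0269%) and 33 more negative (0.177%), and 27 genes were in both. Cacna2d3, an auxiliary subunit of calcium channels, fell in the rod culture from 7.92, 4.09 and 8.80 CPM to 1.16, 1.70 and 0.717 CPM. In the cone culture it was at 5.71, 7.22 and 3.63 CPM and then 9.97, 8.99 and 12.1 CPM. The difference was -3.46 ± 0.44 on the log2 scale (adjusted p = 0.00042), and -3.72 without replicate 2 (adjusted p = 3.5e-05). Neurog2, a proneural factor of neurogenic progenitors, fell in the rod culture (11.8, 25.0 and 17.6 CPM to 5.02, 7.03 and 10.2 CPM) and rose in the cone culture (7.23, 11.5 and 8.74 CPM to 21.8, 27.1 and 28.0 CPM). Its difference was -2.76 (adjusted p = 0.012, and 0.031 without replicate 2), while its fall in the rod culture alone missed the threshold without replicate 2 (adjusted p = 0.14).

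Csn3, the milk protein κ-casein, and Angptl1, an angiopoietin-like secreted protein, rose in the cone culture and did not pass in the rod culture. Csn3 went from 5.95, 7.22 and 15.3 CPM to 114, 54.8 and 67.2 CPM under cone induction, and was at 8.07, 34.7 and 5.98 CPM and then 7.80, 8.73 and 9.19 CPM under rod induction. The difference was -3.96 (adjusted p = 0.0042), and -2.73 without rod day 12 replicate 2 (adjusted p = 0.0083), where the rod change itself went from -0.92 to 0.28. For Angptl1 it was -3.50 and -2.81 (adjusted p = 0.017 and 0.048). In the opposite direction, Rin1, a RAS effector, rose in the rod culture from 4.43, 2.18 and 2.09 CPM to 9.57, 8.34 and 10.1 CPM, and was at 7.35, 8.54 and 8.81 CPM and then 5.90, 5.65 and 6.88 CPM in the cone culture (difference 2.11, adjusted p = 0.0093). Rin1 thus reached at day 21 of rod induction the level that the cone culture had at day 12. Jag1 was likewise higher in the cone culture at day 12 (74.6 to 108 CPM), and its difference passed with all libraries (adjusted p = 0.042) and not without replicate 2 (0.089). In a fit of the 12 rod and cone libraries of these days alone, edgeR called 0 differences, with 1540 genes at an unadjusted p under 0.05.

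**Figure D5:**
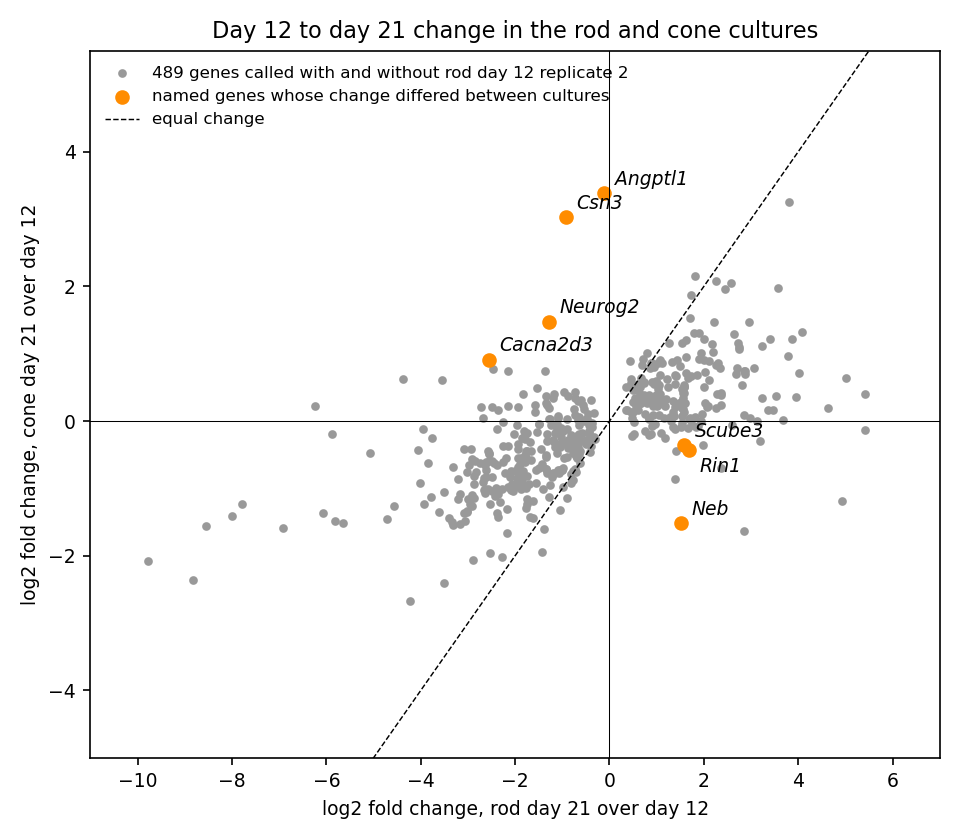
Log2 fold change of day 21 over day 12 in the rod culture (x axis) and the cone culture (y axis) for the 489 genes called with and without rod day 12 replicate 2 and 7 named genes whose changes differed between cultures. The dashed line marks equal change. Cacna2d3 lies at -2.55 and 0.91, and Csn3 at -0.92 and 3.03, both far above the line.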

How the data were processed

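RNA was extracted with a Takara pico-input kit and made into libraries with a Takara low-input kit, per the labels' protocols. The submitters' processing notes name HISAT2, StringTie, HTSeq and the mouse build GRCm38, without versions or roles. For each library the authors deposited a table of raw read counts per gene and a table of TPM, FPKM and coverage per gene, with these units named per the file headers. All results here use the counts. The authors' TPM values served only for an alternative, and FPKM and coverage were not used. Rows that name no gene were left out, of which reads outside any feature made up 19.1% to 30.6% of the reads counted in the 6 libraries.

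Of 47729 genes, 18150 passed edgeR's filter at a minimum count of 10 and were tested with edgeR 4.0.16 (quasi-likelihood, TMM scaling, 33 libraries in 11 groups, R 4.3.3). Log2 fold changes are given with a standard error, and CPM uses the TMM library sizes. Sharing 1 estimate of the spread lends the 3 libraries of a day the precision of the other groups. An exact permutation test of 3 against 3 libraries cannot go below p = 0.1. The cone change and the difference between cultures came from the same model. No pair of libraries was a duplicate by a chi-square test of their counts.

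The days, the replicate left out and the 30 gene lists (555 genes, all matched) were chosen with earlier results of these data known. Genes are named by a rule: the 8 largest rises and falls, and the 3 largest per list and direction, called with the same sign with and without rod day 12 replicate 2, whose log2 CPM averaged 1 or more and whose days did not overlap; 12 fixed genes; the 4 most positive and negative differences between cultures called in both fits; and the 4 genes in which that replicate lay furthest above and below its group (average log2 CPM 3 or more). A few members are left out of the text and are not reported here. Other members were picked from the lists after their values were seen. DESeq2 1.42.0, limma 3.58.1, other scalings, filters, sets of libraries and a replicate block were alternatives. The main fit of the rod comparison was first tested on simulated counts. The difference between cultures was not checked in this way, and neither were the alternatives. Promoters came from RefSeq's GRCm38.p6 table. Gene positions are those of GENCODE M21, on GRCm38.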

Additional observations from a re-analysis of the deposited data

Results flagged for a closer look

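The change from day 12 to day 21 differed between the rod and cone cultures in 78 of 18150 genes by a test of the difference itself (edgeR's quasi-likelihood test, Benjamini-Hochberg adjustment). Among genes with enough counts that were also called without rod day 12 replicate 2, those with the largest differences were taken, up to 4 in each direction. More positive in the rod culture were Neb (rod minus cone 3.04 on the log2 scale), Rin1 (2.11) and Scube3 (1.94), and more negative were Csn3 (-3.96), Angptl1 (-3.50), Cacna2d3 (-3.46) and Neurog2 (-2.76). Without rod day 12 replicate 2 the last 4 were at -2.73, -2.81, -3.72 and -2.45, so their order depended on that library.

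Neb, which encodes the giant muscle protein nebulin, was at 1.14, 0.819 and 0.577 CPM on rod day 12 and 2.47, 2.93 and 1.96 CPM on rod day 21, and at 5.71, 3.42 and 6.57 CPM and then 1.57, 1.63 and 2.22 CPM in the cone culture. The difference had an adjusted p of 0.018, and of 0.0503 without rod day 12 replicate 3. Scube3, a secreted signalling protein, was at 19.9, 14.5 and 14.3 CPM and then 53.9, 33.0 and 58.8 CPM in the rod culture, and at 27.5, 33.1 and 54.5 CPM and then 34.4, 31.3 and 24.4 CPM in the cone culture. Its adjusted p was 0.017, and 0.0647 without rod day 21 replicate 3. Angptl1 was at 1.57, 6.21 and 2.81 CPM and then 2.24, 3.32 and 4.24 CPM in the rod culture, and at 0.583, 0.466 and 0.464 CPM and then 4.59, 3.94 and 7.33 CPM in the cone culture (adjusted p = 0.017). Without cone day 12 replicate 3, 4 of the 7 missed the threshold, with an adjusted p of 0.0829 for Neb, Scube3 and Angptl1 and 0.0614 for Neurog2, and without cone day 21 replicate 2 Neb did (0.0786).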

How the results depend on the processing

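With 2027 genes called in the rod comparison, the count was 5892 with limma voom and sample weights, 16 with limma on log2(TPM + 1) (883 at an unadjusted p under 0.05), 1 in the 6 libraries alone and 71 in 5 of them without day 12 replicate 2, an alternative chosen after seeing the data. The share called higher, 43.71%, became 52.56%, 18.75%, 0% and 46.48%. Leaving out 1 rod library gave 556 to 2926 genes and 37.9% to 48.66% higher. RLE scaling, 2 other filters, DESeq2 and robust dispersion gave 1820 to 2527. The 78 differences between cultures became 139 without a filter, 336 with DESeq2, 1503 with voom, 0 on TPM (487 unadjusted), 0 in the 12 libraries alone and 1 in these without rod day 12 replicate 2, and 6 to 739 with 1 library left out (6 without cone day 12 replicate 3, 739 without rod day 12 replicate 1). Deviations of same-numbered rod libraries of the 2 days correlated at 0.249, 0.117 and -0.0458, and those of differently numbered ones at -0.252 to 0.182. These values do not settle whether replicate numbers pair the samples, and pairing across cultures was not tested. A replicate block gave 2107 and 85 genes over all libraries, and 146 and 1 in the compared groups alone.

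Signs reversed for Aldh1a1 (-0.37 with voom, -0.23 without day 12 replicate 2, -0.06 without day 21 replicate 1, -0.22 in the 5 libraries, range -0.23 to 0.78 with 1 library left out), Mki67 (0.26 without day 12 replicate 1, range -0.40 to 0.26) and Sox15 (-0.59 without day 21 replicate 3, range -0.59 to 1.43), none of which passed the test. On TPM, Notch4 (-1.19), Cdkn2b (-0.66), Cyp26a1 (0.38) and Ogn (-0.34) reversed and Fabp7 was at 0. The median of all genes on TPM was -0.18. Of 10123 genes with a mean of at least 100 counts, 19% to 37.7% per library were listed at TPM 0, so the 2 tables disagree, and the cause was not tested. All 65 named values kept sign and side of the threshold under RLE, DESeq2, no filter, robust dispersion and the block over all libraries. Nkd1 missed the threshold without day 12 replicate 3 (adjusted p = 0.128), day 21 replicate 2 (0.0506) or day 21 replicate 3 (0.191). At 3 counts of floor, genes under about 0.2 CPM cannot be followed.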
